A study of Homo sapiens with 2 samples.

Results

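The replication-dependent histone genes were examined in CLIP-seq of hTrmt13 (TRMT13), a human tRNA methyltransferase. The cells were MDA-MB-231, a long-established line from a human breast carcinoma. CLIP-seq isolates a protein with the RNA crosslinked to it and sequences that RNA. They were taken as the protein-coding features whose symbols begin with HIST1H, HIST2H, HIST3H or HIST4H. This gave 72 lines for 71 genes, because HIST2H2AA4 was listed under 2 identifiers with the same counts and was counted once, out of 20284 nuclear protein-coding genes. By histone type they were 6 H1, 17 H2A, 18 H2B, 15 H3 and 15 H4 genes. By cluster they were 55 HIST1 genes and 12 HIST2 genes, on chromosomes 6 and 1, the 3 HIST3 genes further along chromosome 1, and HIST4H4 on chromosome 12.

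The data were 1 group with 2 replicates of the same line, both from complexes pulled down with an antibody to hTrmt13. No library of input RNA or of a control antibody was analysed here (0 of either). A level is therefore the amount of RNA recovered, and binding by hTrmt13 and abundance of the RNA in the cells cannot be told apart. Each replicate had a count table for each read mate (R1 and R2). Unless stated, values are R1 counts, or R1 counts scaled to a common library total (CPM), and where a gene is given with a pair of counts, the first is from replicate 1. The R1 totals were 27907799 in replicate 1 and 20590398 in replicate 2. Whether the replicates were grown as separate cultures is not stated in the labels, so an SD over 2 may be technical. PCR reads without molecular identifiers are not independent molecules, and intervals cover counting error only.

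Replication-dependent histone mRNAs are made in S phase, when new DNA has to be packed into nucleosomes. They are the class of animal mRNA that ends without a poly(A) tail. The end is instead a short conserved stem-loop, bound by the protein SLBP and cut to length with the help of the U7 small nuclear RNA, and most of these genes have no introns. H2A, H2B, H3 and H4 form the core of the nucleosome and H1 sits on the linker DNA.

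The stem-loop is shown for 7 of the genes described here, since it is the feature that sets these mRNAs apart. The sequences are from GENCODE release 29 transcripts, written 5′ to 3′ as DNA, and the capitals mark the 6-base stem, the 4-base loop and the second arm of the stem.
HIST2H3A: caaaaGGCTCTTTTCAGAGCCacccacatc
HIST2H2AA3: caaaaGGCTCTTTTCAGAGCCacccacgtt
HIST2H2AA4: caaaaGGCTCTTTTCAGAGCCacccacgtt
HIST1H2AG: ccaacGGCTCTTTTCAGGGCCacccacgtc
HIST2H4A: ccaaaGGCCCTTTTTAGGGCCgaccacttg
HIST1H4B: ccaatGGCCCTTTTCAGGGCCgcccactcc
HIST1H2BD: ccaaaGGCTCTTTTAAGAGCCacgcatgtt

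The histone 3′ stem-loop was found on the sense strand in transcripts of 32 members, against 11 of 19613 other protein-coding genes (0.0561%). On the other strand it was found in 0.0305% of all protein-coding genes. By type it was found in 0 of 6 H1, 7 of 17 H2A, 11 of 18 H2B, 6 of 15 H3 and 8 of 15 H4 genes. The core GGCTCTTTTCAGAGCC was the most frequent, in 17 members. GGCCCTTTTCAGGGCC was in 5 and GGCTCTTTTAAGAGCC in 5. A further 32 members, among them HIST1H1C, HIST1H3B and HIST1H2BK, were listed in the count tables with a span equal to the coding length, and the stem-loop was found in 0 of these. Such a span leaves out whatever lies beyond the stop codon.

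The histone genes together held 8929 counts in replicate 1, or 0.0320% of the library (95% Clopper-Pearson interval 0.0313 to 0.0327%), and 17039 counts in replicate 2, or 0.0828% (0.0815 to 0.0840%). The mean was 0.0574% ± 0.0359 (SD, n = 2). Most of each library was tRNA or lay in features overlapping tRNA. Of the counts of protein-coding genes that overlap no tRNA feature, the histone genes held 0.594% in replicate 1 and 0.780% in replicate 2.

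A mean of at least 10 counts was reached by 56 of the 71 histone genes (78.9%), against 13150 of 20213 other protein-coding genes (65.1%). Of the other 15, HIST1H4G had 0 counts in all 4 tables, which allows up to 0.107 CPM in replicate 1 and 0.146 CPM in replicate 2 (3 counts per library). HIST1H3I had 0 R1 counts but 3 and 7 R2 counts. HIST2H3PS2, with 3 and 20 counts, and HIST1H2BH, with 7 and 16, lay just above the minimum. HIST1H1B, with 6 and 11, and HIST1H2BI, with 4 and 9, lay just below it.

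The members known from testis were near 0. HIST1H1T, the linker histone of spermatocytes, had 1 and 2 counts, and HIST3H3, a testis H3, had 2 and 3. HIST1H2AA and HIST1H2BA, which lie head to head at the far end of the HIST1 cluster, had 0 counts in replicate 1 and 1 each in replicate 2.

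**Figure D1:**
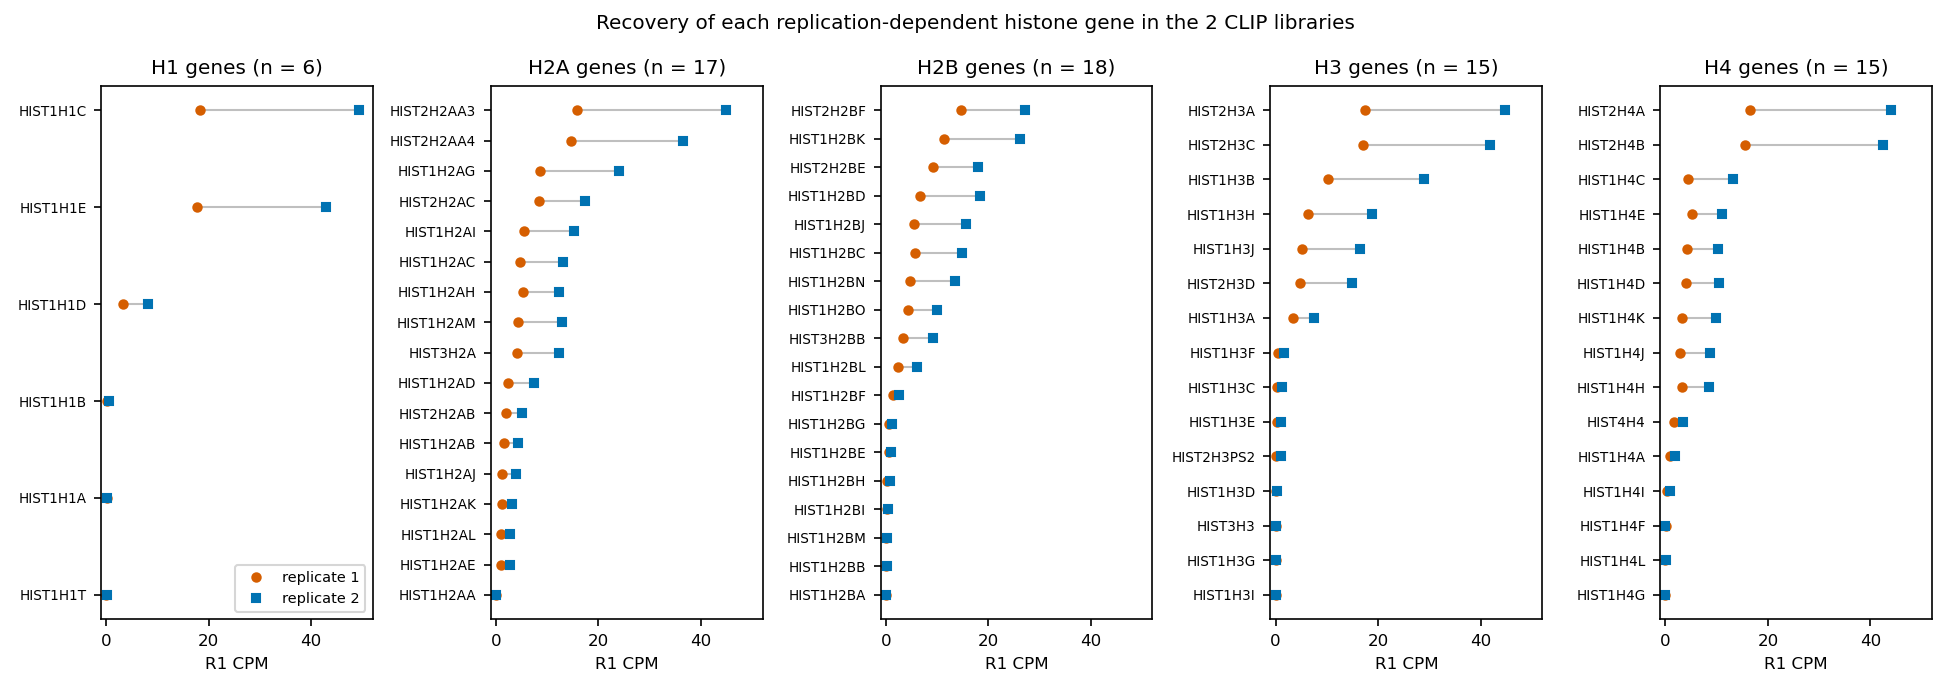
R1 CPM of each of the 71 histone genes in replicate 1 (circles) and replicate 2 (squares), by histone type, sorted by mean. HIST1H1C was the highest at 33.8 CPM on average, 68 of the genes had more CPM in replicate 2, and every type ends in genes at or near 0. At this scaling 89.1% of nuclear protein-coding genes with a mean count of at least 10 were called higher in replicate 2.

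Linker histone counts came almost wholly from 3 of the 6 H1 genes. HIST1H1C (H1.2; ENSG00000187837.3_2, hg19 chromosome 6, 26056015 to 26056656, minus strand) had 512 and 1016 counts and averaged 33.8 ± 21.9 CPM (SD, n = 2). HIST1H1E (H1.4; chromosome 6, 26156582 to 26157335, plus strand) had 493 and 884, or 30.3 ± 17.9 CPM (SD, n = 2). HIST1H1C had the higher count of these genes in both replicates, and the difference was not tested. HIST1H1D (H1.3) had 94 and 167 counts. These 3 held 99.2% of the H1 counts, while HIST1H1B (H1.5) and HIST1H1A (H1.1), somatic linker histones too, stayed under the minimum.

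H2A counts were led by a duplicated gene. HIST2H2AA3 (chromosome 1, 149813505 to 149814478, minus strand) had 441 and 922 counts, or 30.3 ± 20.5 CPM (SD, n = 2). Its copy HIST2H2AA4 (chromosome 1, 149822628 to 149823191, plus strand) had 411 and 751, or 25.6 ± 15.4 CPM. Both encode the same H2A with the same coding sequence of 393 bases. HIST1H2AG followed with 239 and 493 counts and HIST2H2AC with 234 and 359, and 16 of the 17 H2A genes passed the minimum.

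H2B counts were spread about as evenly as those of H2A. HIST2H2BF had 409 and 558 counts, or 20.9 ± 8.80 CPM (SD, n = 2). Its listed span of 29684 bases is the longest of any member and overlaps FCGR1A, an Fc receptor gene. Where in that span its counts lie is not known. HIST1H2BK (chromosome 6, 27114197 to 27114577, minus strand), listed with its 381 coding bases only, had 319 and 538, or 18.8 ± 10.4 CPM. HIST2H2BE, known for an mRNA that can also be polyadenylated, had 257 and 371. The top 3 held 45.1% of the H2B counts, against 99.2% for H1.

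H3 counts followed the same lead of the HIST2 cluster. HIST2H3A (chromosome 1, 149824181 to 149825836, plus strand) had 486 and 921 counts, or 31.1 ± 19.3 CPM (SD, n = 2), and its copy HIST2H3C (chromosome 1, 149811110 to 149812765, minus strand) had 476 and 860, or 29.4 ± 17.5 CPM. HIST1H3B, an H3.1 gene with a span of 411 coding bases, had 285 and 597. The remaining H3 genes ranged from 12.6 CPM down to 0, with HIST1H3J at 10.8 and HIST2H3D at 9.83. HIST1H3D, HIST1H3G, HIST1H3I and HIST3H3 did not reach the minimum, and the median over all 15 H3 genes was 1.01 CPM.

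H4 counts were also led by a pair of copies. HIST2H4A (chromosome 1, 149804223 to 149811339, plus strand) had 460 and 908 counts, or 30.3 ± 19.5 CPM (SD, n = 2), and HIST2H4B (chromosome 1, 149825607 to 149832776, minus strand) had 436 and 874, or 29.03 ± 18.97 CPM. HIST1H4C had 122 and 270 counts. HIST1H4E, HIST1H4B, HIST1H4D, HIST1H4K, HIST1H4J and HIST1H4H lay close behind it, between 8.13 and 5.84 CPM, and their differences were not tested.

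By type, H2A genes summed to 81.5 CPM in replicate 1 and 218 in replicate 2, or 26.1% of the histone CPM. H3 genes held 21.3%, H2B genes 20.6%, H4 genes 19.8% and H1 genes 12.3%. Within a replicate the core types were thus close in summed counts: in replicate 1 they ran from 62.1 CPM for H4 to 81.5 CPM for H2A, and in replicate 2 from 165 for H4 to 218 for H2A. H1, with 39.7 and 101 CPM, was the lowest type in both replicates. These sums are not per length. Per kilobase of listed span, the median over the genes past the minimum was 40.2 CPM for H1, 8.97 for H2A, 1.60 for H2B, 10.2 for H3 and 4.91 for H4.

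**Figure D2:**
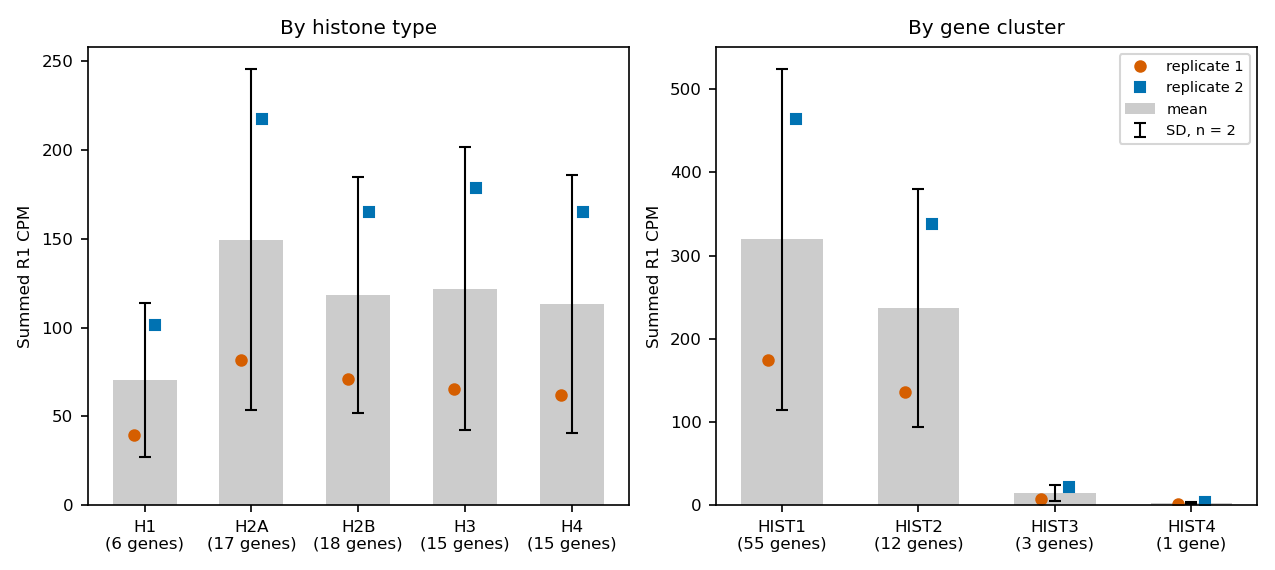
Summed R1 CPM of the histone genes by type (left) and by cluster (right). Bars are means of the 2 replicates, error bars their SD, and points the replicates, with replicate 2 above replicate 1 in every group.

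By cluster, the 55 HIST1 genes summed to 175 CPM in replicate 1 and 465 in replicate 2 (55.7% of the histone CPM), and the 12 HIST2 genes to 136 and 338 (41.3%). By the median gene, HIST2 was the higher. Its leading genes are pairs of copies with identical coding sequences, and some of them overlap each other. Reads may be shared among them, so the ranking gene for gene is uncertain. All 12 HIST2 genes passed the minimum, with a median of 23.2 CPM, whereas 41 of 55 HIST1 genes passed, with a median of 6.57 CPM. Per kilobase of listed span these medians were 13.3 and 6.53. The 3 HIST3 genes had 7.38 and 21.6 CPM in sum, led by HIST3H2A with 112 and 253 counts, and HIST4H4 had 45 and 70 counts.

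The counts were spread over many members. The 5 highest members held 27.2% of the histone CPM, the 10 highest 48.9% and the 20 highest 71.3%. Within HIST1, genes fell into blocks separated by over 200 kb, of 2, 32, 5 and 16 genes in order along the chromosome. The block of 5, which holds HIST1H2BJ, HIST1H2AG, HIST1H2BK, HIST1H4I and HIST1H2AH, had the highest median count of the 4, 10.6 CPM, while the blocks of 32 and 16 had medians of 1.90 and 5.04 CPM over all their genes. Per kilobase of listed span, over genes past the minimum, the order differed: the block of 16 had a median of 9.42 CPM, the block of 5 one of 7.22 and the block of 32 one of 3.95.

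The leading HIST2 genes form a mirrored duplication, and reads cannot be assigned to 1 copy from the coding sequence. HIST2H2AA3 with HIST2H2AA4, HIST2H3A with HIST2H3C, HIST2H4A with HIST2H4B, and in HIST1 HIST1H4J with HIST1H4K, had identical coding sequences. For these 8 genes 100% of the 30-base words of the coding sequence also occurred in another member. Counts of the copies were close: HIST2H3A had 1.02 times the count of HIST2H3C in replicate 1 and 1.07 times in replicate 2. HIST2H2AA3 had 1.07 and 1.23 times the count of HIST2H2AA4. How reads with several matches were counted is not given in the sources used here, so the level of a single copy is uncertain. Over all members the median share of such shared words was 12.8%, and 54 members shared fewer than were unique to them.

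The start of the H4 coding sequence shows where these genes differ. The first 60 coding bases are given from GENCODE release 29, with bases that differ from HIST1H4C in capitals.
HIST1H4C: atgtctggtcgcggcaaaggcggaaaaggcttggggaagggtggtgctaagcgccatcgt
HIST2H4A: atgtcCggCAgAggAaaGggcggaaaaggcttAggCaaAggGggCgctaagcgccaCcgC
HIST2H4B: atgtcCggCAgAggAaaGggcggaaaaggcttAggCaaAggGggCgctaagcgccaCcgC
HIST1H4E: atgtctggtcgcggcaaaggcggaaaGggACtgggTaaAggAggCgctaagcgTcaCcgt
HIST1H4J: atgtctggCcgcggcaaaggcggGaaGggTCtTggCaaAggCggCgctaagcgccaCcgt
HIST1H4K: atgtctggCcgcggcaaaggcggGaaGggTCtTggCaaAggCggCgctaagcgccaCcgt

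In these 60 bases HIST2H4A differed from HIST1H4C at 13, HIST1H4E at 9 and HIST1H4J at 11, while HIST2H4A and HIST2H4B, and HIST1H4J and HIST1H4K, were the same. Over the whole coding sequence the H4 genes had a median identity of 83.7% by pair, the H2A genes 85.2%, the H3 genes 85.2% and the H2B genes 89.8%. Of the 30-base words of the coding sequence, 0% in HIST1H4C and 2.12% in HIST1H4E also occurred in another member. In HIST1H4J (81 and 181 counts) and HIST1H4K (93 and 202) 100% did. Sequence outside the coding regions and genes other than the members were not compared. Where in a listed span the counts lie is not known.

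Some members also share reads by position. Of the 71, 16 overlap another listed feature and 9 overlap another member. HIST1H2BN, with a span of 28039 bases, encloses HIST1H2AK and HIST1H2AL. HIST1H3J, with 146 and 338 counts, overlaps HIST1H2AM, with 122 and 265. HIST2H4A overlaps the end of HIST2H3C, and HIST2H4B that of HIST2H3A. A read in such an overlap may stand in the sums more than once.

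H2A and H2B genes often lie as divergent pairs, transcribed away from a shared stretch of DNA. There were 11 pairs of neighbours on opposite strands within 500 bases, with gaps of 218 to 330 bases between the listed spans. HIST2H2AC, with 234 and 359 counts, and HIST2H2BE, with 257 and 371, had an H2A to H2B count ratio of 0.911 in replicate 1 and 0.968 in replicate 2. HIST1H2AG over HIST1H2BJ stood at 1.56 and 1.53, and HIST1H2AH over HIST1H2BK at 0.464 and 0.472. These 3 pairs had like ratios in both libraries, whereas HIST1H2AD over HIST1H2BF stood at 1.74 in replicate 1 and 2.80 in replicate 2, and HIST1H2AE over HIST1H2BG at 1.44 and 2.29. The widest was HIST1H2AJ, with 34 and 79 counts, over HIST1H2BM, with 2 and 6. The ratios are of counts, not per length, and the listed spans of the partners differ.

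Compared with other protein-coding genes, histone genes past the minimum had more counts and far more counts per length. Their median was 7.69 CPM, with quartiles of 2.52 and 12.7, against 3.40 CPM for the other genes, with quartiles of 1.59 and 6.71. Of the 56, 40 lay above the median of the other genes and 31 above its upper quartile. The listed span differed greatly, with a median of 603 bases for these histone genes and 38700 bases for the other genes, whose spans include introns. Per kilobase of span the medians were 6.88 and 0.0890 CPM, and 55 of the 56 lay above the second. These are descriptions of the genes past a count minimum and not tests, and no library of unselected RNA was set beside them.

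Genes of like span were then set side by side. The 33 histone genes with a span of up to 1 kb had medians of 6.57 CPM and 15.7 CPM per kilobase. The 18 other protein-coding genes of that span had medians of 1.21 CPM and 2.06 CPM per kilobase. The 23 histone genes with longer spans had medians of 10.3 CPM and 1.54 CPM per kilobase. Across the 71 members, CPM and span had a Spearman correlation of 0.337, a description over genes that share libraries.

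**Figure D3:**
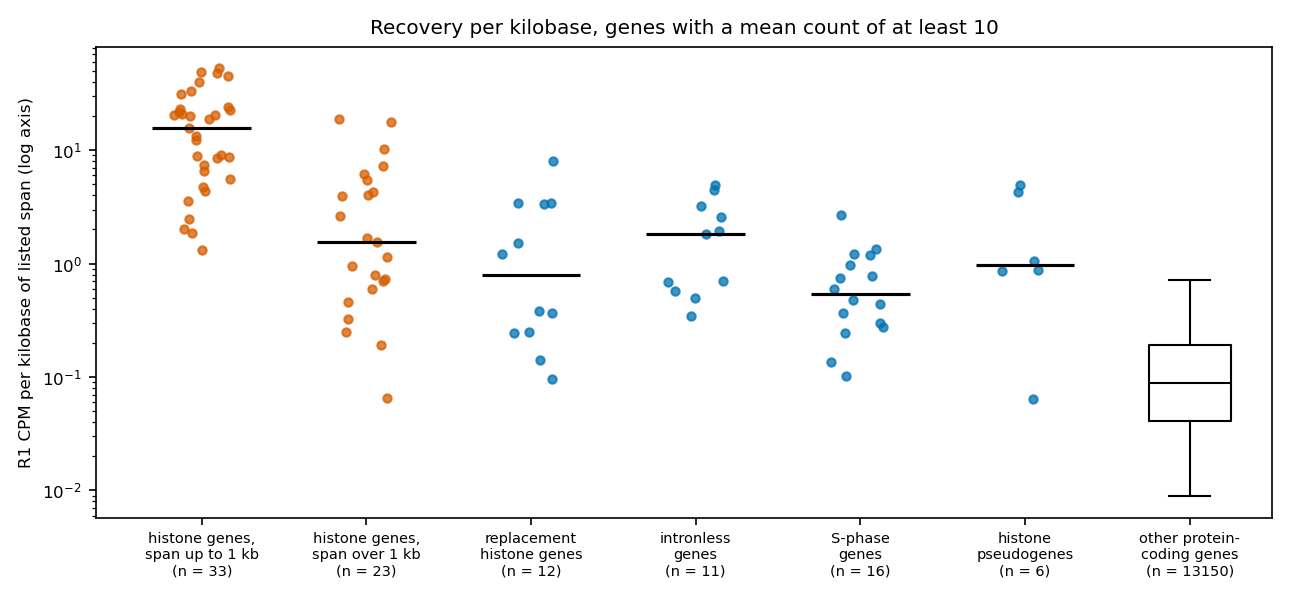
R1 CPM per kilobase of listed span for genes with a mean count of at least 10, on a log axis. Points are genes and bars medians. The box at right gives the quartiles of the other protein-coding genes with whiskers at percentiles 5 and 95. The 33 histone genes of up to 1 kb had a median of 15.7 CPM per kilobase, and the other protein-coding genes a median of 0.0890.

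The medians here are over all genes of a group, also those under the minimum. Members in whose transcripts the stem-loop was found had a median of 8.14 CPM, with 30 of 32 past the minimum. The others had a median of 2.53 CPM, with 26 of 39 past it. The genes with coding-only spans, 32 of these 39, had a median of 2.35 CPM. As the stem-loop was found in 0 genes with a coding-only span, the stem-loop and the completeness of the gene model cannot be told apart here.

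Genes around the histone mRNA were examined as lists. Replacement and variant histones, which are made outside S phase as well and mostly from polyadenylated mRNAs, had all 12 genes past the minimum and a median of 6.80 CPM. H2AFY (macroH2A) had 292 and 450 counts, H2AFX 209 and 376, and H3F3B (H3.3) 176 and 341. Their median per kilobase was 0.796 CPM, against 6.88 for the replication-dependent genes. H2AFX, whose mRNA can end in the stem-loop or in a poly(A) tail, was the highest of them per kilobase at 7.98 ± 4.72 CPM (SD, n = 2).

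The 12 genes for 3′ end processing of histone mRNA and for the histone locus body had a median of 4.65 CPM. SYMPK, the scaffold of the cleavage complex, had 203 and 318 counts, and NPAT, the locus body protein that turns on histone genes, 137 and 224. SLBP had 82 and 164. RNU7-1, the U7 small nuclear RNA itself, had 53 counts in replicate 1 and 30 in replicate 2. The 6 genes of histone mRNA decay, led by UPF1 with 213 and 370 counts, had a median of 7.63 CPM. The 16 S-phase replication genes had a median of 9.84 CPM, with POLA1, a DNA polymerase subunit, at 582 and 853 counts and MCM7, of the replicative helicase, at 423 and 704. Per kilobase of listed span the medians were 0.541 CPM for S-phase, 0.163 for decay and 0.139 for processing genes. That of the replication-dependent histone genes was 6.88. Of 12 intronless genes that are no histone genes, 11 passed the minimum, with medians of 3.62 CPM and 1.84 CPM per kilobase. JUN, with 214 and 490 counts, led them.

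The share of histone counts differed between the libraries. All 56 histone genes past the minimum had more CPM in replicate 2. Most other genes did too: 11708 of 13150 other protein-coding genes were called higher at this scaling by the binomial test described below. Between the libraries the scaling by TMM, which evens out most genes, and scaling to library totals differ by 1.09 on the log2 scale, so the direction for a single gene depends on the scaling. With TMM the median log2 ratio of replicate 2 over replicate 1 was 0.35 for the histone genes and 0.01 for other protein-coding genes, and 48 of the 56 lay above the second. With library totals the medians were 1.45 and 1.11. The scalings differ by a constant, so the distance between the 2 medians, 0.34, is the same by construction.

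An exact two-sided binomial test of each gene's split, with Benjamini-Hochberg adjustment over 18723 features, called 15 of 56 histone genes higher and 0 lower in replicate 2 with TMM scaling. Of all features tested 2.29% were called higher, and of nuclear protein-coding genes 2.37% were called higher and 2.9% lower. With library totals 54 of 56 were called higher, where 89.1% of protein-coding genes were. The test sets 1 library against 1 other, covers counting error only and says nothing of a condition. The 15 came from every type: 1 H1, 4 H2A, 2 H2B, 5 H3 and 3 H4 genes. They are not all separate. HIST2H4A and HIST2H4B, both called, had the same coding sequence, and HIST1H3J overlaps HIST1H2AM, also both called, so reads may be shared.

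HIST2H2AA3 had a log2 ratio of 0.41 (exact binomial test, adjusted p = 1.6e-05), HIST1H1C one of 0.33 (exact binomial test, adjusted p = 3.3e-04) and HIST2H4B one of 0.35 (exact binomial test, adjusted p = 6.5e-04). HIST2H3D, with 131 and 308 counts, had the largest ratio among the 15, 0.58. The copies of called genes were not always called: HIST2H2AA4 had a ratio of 0.22 and HIST2H3C one of 0.20, and the difference between copies was not tested. The largest ratios overall were in genes of few counts and did not pass, such as HIST2H3PS2 at 1.90 (3 and 20 counts), HIST1H3C at 1.43 (6 and 27), HIST1H3E at 1.38 (5 and 22) and HIST1H4I at 1.00 (6 and 20). At the low end, HIST1H2BE stood at -0.58 (19 and 20 counts), HIST1H2BG at -0.25 (18 and 24), HIST2H2BF at -0.21 and HIST1H2BF at -0.15 (38 and 54), all of them H2B genes, and none passed.

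**Figure D4:**
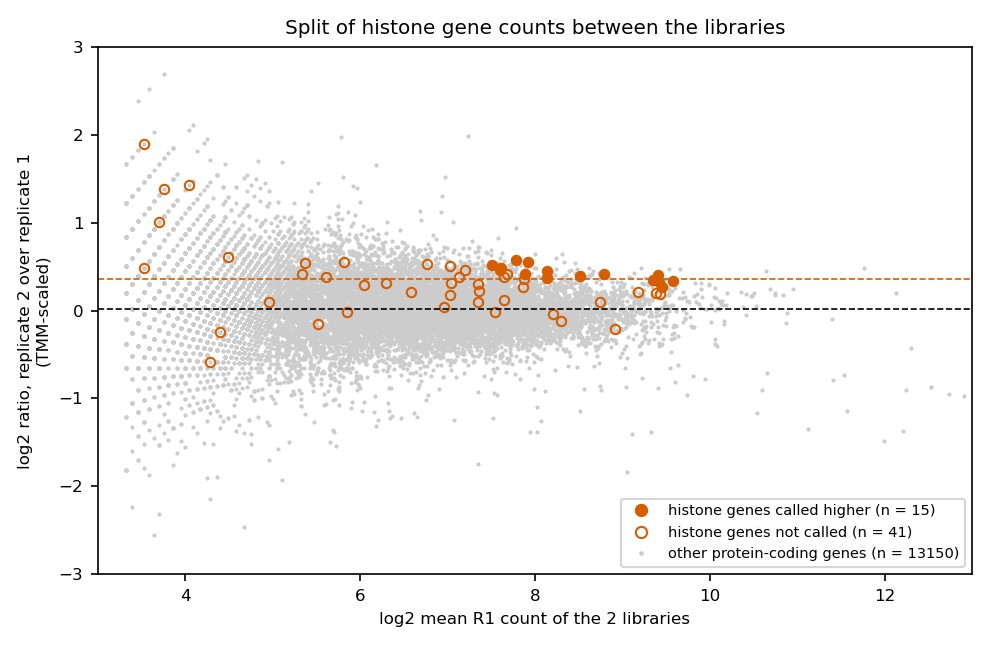
Log2 ratio of replicate 2 over replicate 1 (TMM-scaled) against the log2 mean R1 count, for the histone genes (filled where called higher, open where not) and the other protein-coding genes (grey). Dashed lines are the medians, 0.35 for histone genes and 0.01 for the others. The axes leave out 43 other genes.

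The ratio was also taken in the other lists. Among the histone genes themselves it had a median of 0.36 for spans of up to 1 kb and 0.35 for longer spans. The replacement histones, with spans of 1057 to 66015 bases, had a median log2 ratio of 0.35, with 2 of 12 called higher, H2AFZ (110 and 243 counts) and H3F3C (11 and 58). The intronless genes had a median of 0.36, with JUN and RHOB called higher among 11. The 18 other protein-coding genes with a span of up to 1 kb had a median of 0.34. The median was 0.07 for S-phase genes, where CDT1 alone of 16 was called higher, 0.02 for 3′ end processing, where 0 of 12 were called in either direction, and -0.28 for histone mRNA decay, where ZCCHC6 alone of 6 was called lower. With this TMM scaling 2.37% of nuclear protein-coding genes were called higher and 2.9% lower. The lists are short, so 1 or 2 calls say little of a list. Differences between the lists were not tested. With library totals, where 89.1% of protein-coding genes were called higher, 12 of 12 replacement histones, 10 of 11 intronless genes, 16 of 16 S-phase genes, 10 of 12 processing genes and 5 of 6 decay genes were called higher.

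The histone genes ranked alike in both libraries and both mates. Across the 71 genes, which share libraries and are not replicates, log2 CPM of the replicates had a Pearson correlation of 0.988, and the Spearman correlation was 0.988 between replicates and 0.989 between mates. In R2 the histone genes held 8006 counts in replicate 1 and 14921 in replicate 2. As a share of the R1 counts this was 89.7% and 87.6%, against 42.7% and 41.5% for tRNA features and 40.3% and 42.7% for the whole libraries. A gene's R2 count was 87.0% of its R1 count at the median of the histone genes and 85.9% at that of the other protein-coding genes. Among the 56 genes past the minimum, HIST1H2BH, with 7 and 16 R1 counts but 0 and 3 R2 counts, and HIST2H3PS2, with 3 and 20 R1 counts but 18 and 35 R2 counts, were the extremes, at 13.04% and 230.4%.

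The HIST1 cluster shares its stretch of chromosome 6 with a major tRNA gene cluster. Between the first and the last HIST1 gene (hg19 chromosome 6, 25726360 to 27861621) lie 108 listed tRNA features. They held 1708100 counts in replicate 1 and 1162795 in replicate 2, against 4881 and 9568 for the 55 histone genes. tRNA thus stood at 61205 and 56473 CPM, and the histone genes at 175 and 465. The CPM of the histone genes was higher in replicate 2 and that of the tRNA features was not. This is not particular to the histone genes, as 89.1% of nuclear protein-coding genes were called higher in replicate 2 with library totals.

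No histone gene overlaps a tRNA feature (0 of 71), and the nearest tRNA lay 888 to 559999 bases from the HIST1 genes, with a median of 45778. HIST1H4H, 888 bases from tRNA-iMet-CAT-1-2, had 89 and 175 counts, where that tRNA had 57388 and 41981. HIST1H2AH and HIST1H2BK, the other HIST1 genes within 5 kb of a tRNA, neighbour tRNA-Val-CAC-9-1, which had 0 and 4 counts. Across the 55 HIST1 genes CPM and distance had a Spearman correlation of -0.152, a description over genes that share position and libraries.

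**Figure D5:**
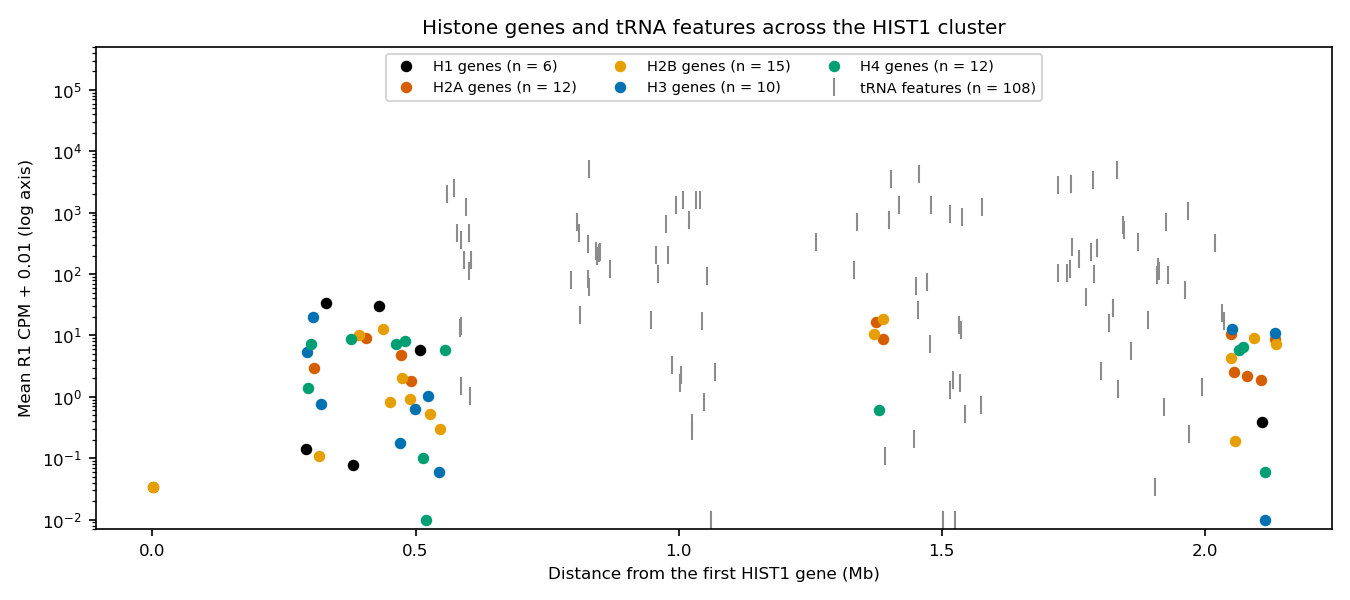
Mean R1 CPM + 0.01 (log axis) of the 55 histone genes (points, by type) and 108 tRNA features (grey ticks) against the distance from the first HIST1 gene in Mb. The histone genes lie in 4 blocks, the highest at 33.8 CPM, with tRNA features mostly between the blocks.

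The line's markers were checked against the labels. Of 5 markers of mesenchymal-like breast carcinoma lines, VIM had 382 and 722 counts, while CD44 (12 and 7), AXL (16 and 12), CAV1 (13 and 29) and SPARC (24 and 32) were low, so only 1 of 5 lay above the median of 3.40 CPM. Their sum was 16.0 CPM in replicate 1 and 39.0 in replicate 2. The 7 luminal markers summed to 4.19 and 10.1 CPM, with CDH1 at 40 and 51 counts, KRT18 at 22 and 49 and PGR at 0 and 4. In mean CPM, CDH1 (1.96) and KRT18 (1.58) were above the mesenchymal markers other than VIM, of which SPARC (1.21) was the highest. The 3 blood markers summed to 0.502 and 0.923 CPM, CD3E and the liver marker ALB had 0 counts, and the neuronal marker RBFOX3 had 24 and 54. These are levels of recovered RNA, so a low marker is not shown to be unexpressed.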

How the data were processed

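CLIP-seq of hTrmt13 in MDA-MB-231 cells was analysed from 4 tables, 1 for each mate of 2 replicates. The authors deposited raw counts, as whole numbers of reads for each listed feature. The hg19 (GRCh37) build, bedtools 2.24.0 and Bowtie2 2.3.5.1 were used, per the submitters' processing notes. How multiply matching reads were treated, and whether strand was used, is not given in the sources used here, so reads of overlapping genes cannot be told apart. Each table lists 741091 features, and 741078 remained after 13 repeated lines were dropped. Positions are 1-based from the tables. No hg19 annotation was used, so exons and UTRs are not given.

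CPM is counts over the library total. Medians of CPM are over genes with a mean R1 count of at least 10 unless all genes of a group are named. TMM factors came from edgeR 4.0.16 and alternative size factors from DESeq2 1.42.0 in R 4.3.3. Log2 ratios used a pad of 0.5 counts. The split of each feature went through an exact binomial test, two-sided, with Benjamini-Hochberg adjustment at 0.05 over 18723 features. In 18723 simulated features it called 53% of 2-fold and 90% of 4-fold changes and 0.0324% of unchanged features. The simulated counts held counting error only, the error that the test assumes. These rates thus leave out any other spread between real libraries. The single group allows no test between conditions. Scripts ran in Python 3.11.15 with scipy 1.17.1, pandas 2.3.3, numpy 2.4.6 and, for figures, matplotlib 3.10.9. Sequences came from GENCODE release 29 transcripts, matched by gene ID for 66 members and by symbol for 5. The consensus of the histone 3′ stem-loop, a 6-base stem and a 4-base loop with pairing arms, was searched on both strands.

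The members and lists were chosen with earlier results of these data known. Named members are the 3 highest of each type, the highest of each cluster, the 4 highest and 4 lowest ratios between replicates, the 3 highest and 3 lowest ratios between mates, 2 on each side of the count minimum, the testis-type members, those with 0 counts in all tables, and the highest genes of each list. HIST1H1A, HIST2H2AC, HIST1H3D, HIST1H3G, HIST1H3I, HIST1H4B, HIST1H4D, HIST1H4E, HIST1H4H, HIST1H4J, HIST1H4K, HIST1H2AD, HIST1H2AE, HIST1H2AH, HIST1H2AK, HIST1H2AL, HIST1H2AM, HIST1H2BJ, HIST1H2BD, HIST1H2BM, HIST1H2BN, HIST1H3J, SLBP, RNU7-1, ZCCHC6, CDT1, H2AFZ, H3F3C and RHOB lie outside this rule or were picked for sequence, position or calls after their values were seen. Alternatives tried were the R2 table, both mates summed, each replicate left out, minimum counts of 1 or none, overlapping or long members left out, other totals and other scalings.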

Additional observations from a re-analysis of the deposited data

How the results depend on the processing

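Under other settings, 91 values were recomputed. Of these, 45 stayed within 1 SD of the replicates or the bound used and 46 moved, 39 up and 7 down. A turn of direction was possible only for the median log2 ratio, as the other values cannot be negative, and 0 were seen there. The bounds, 0.1 on the log2 scale for the ratio and 1.5 times for counts of genes, were chosen after the data were seen. The mean of 2 libraries cannot move by 1 SD when either is dropped, so leaving out replicate 1 or 2 is no sign of stability, and it was not possible for the ratio and the calls. No paired analysis was possible because the labels give 1 group only. The cause of these moves was not tested, except where a setting removes genes or counts by construction.

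In the R2 table the histone share was 0.120%, the median 16.8 CPM and 16.7 CPM per kilobase, and the sums were 145.9 CPM for H1, 309 for H2A, 266 for H2B, 256 for H3, 227 for H4, 665 for HIST1, 505 for HIST2, 29.1 for HIST3 and 4.79 for HIST4. With tRNA features and features overlapping them taken out of the total, the share was 0.422%, the median 56.2 CPM and 49.9 per kilobase, and the sums were 519 for H1, 1095 for H2A, 881 for H2B, 892 for H3, 832 for H4, 2344 for HIST1, 1751 for HIST2, 105 for HIST3 and 18.9 for HIST4. Over protein-coding genes without tRNA overlap, the share was 0.687%, the median 91.2 CPM and 81.6 per kilobase, and the sums were 845 for H1, 1782 for H2A, 1439 for H2B, 1449 for H3, 1353 for H4, 3813 for HIST1, 2854 for HIST2, 170.3 for HIST3 and 31.0 for HIST4. Without members of spans over 1000 bases, 33 passed the minimum, the median per kilobase was 15.7, and the sums were 31.6 for H2B, 37.5 for H3, 37.1 for H4 and 82.6 for HIST2, with no value for HIST4, whose only gene is longer. Without members overlapping another feature, HIST2 summed to 92.2 CPM and 9 members were called higher with TMM, where 2.29% of all features were. With library totals the median log2 ratio was 1.45 and 54 of 56 members were called, where 89.1% of protein-coding genes were called higher. DESeq2 size factors gave 15 calls of 56, R2 counts 14 of 53 members and a minimum of 1 count 17 of 67. The share over all features was not taken for these last settings, so their calls have no background beside them. Of 184 values of single named genes, 93 moved, all up.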

Other observations

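Histone pseudogenes of these clusters were counted apart. Of 15 listed, 6 passed the minimum, with a median of 1.97 CPM and 0.969 CPM per kilobase. HIST2H2BA, a transcribed H2B pseudogene, was the highest with 75 and 260 counts in the 2 replicates, a mean of 7.66 ± 7.03 CPM (SD, n = 2). HIST2H2BD had 16 and 75 counts and HIST2H3DP1 15 and 74. Their median log2 ratio of replicate 2 over replicate 1 was 1.26 with TMM scaling, against 0.35 for the genes, and 3 of 6 were called higher by the exact binomial test, where 2.29% of all features were. With library totals the median was 2.35 and 6 of 6 were called, where 89.1% of protein-coding genes were. Their R2 counts were 40.8% of the R1 counts at the median, against 87.0% for the genes. HIST3H2BA, with 8 and 17 counts, had the lowest log2 ratio of the 6, 0.39. Its R2 counts, at 184% of R1, were above its R1 counts. The difference between pseudogenes and genes was not tested.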
